A study of Mus musculus with 4 samples.

Results

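Expression of 5 mismatch repair genes, Msh3, Msh6, Mlh3, Pms1 and Pms2, was examined in mouse oocytes with and without γ-irradiation. The genes were chosen by name as genes of this pathway. They are 5 of the 17374 genes and hold 27 of the 45505 transcripts in the deposited table. All transcripts of a gene were summed to give the gene total. The oocytes were at the germinal vesicle (GV) stage, in which meiosis is arrested in prophase, and came from C57/Bl6/DBA2J F1 hybrid females on postnatal day 16 that had received no hormone priming. In both groups the cumulus cells were stripped off by pipetting, the oocytes were held in culture with milrinone, which blocks the resumption of meiosis, and mRNA was captured with oligo(dT). The irradiated group received 5 Gy from a Cesium-137 source in culture and was collected 24 h later, and the control group was not irradiated. Each group has 2 libraries from independent experiments, 4 libraries in all, and 59 oocytes were used per condition.

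Mismatch repair removes bases that were wrongly paired during replication or recombination. Proteins of the MutS family bind the mismatch: the complex with Msh6 mainly recognises single mispaired bases and very short loops, and the complex with Msh3 mainly recognises loops of extra bases. Proteins of the MutL family then act on the bound complex. Pms2 carries the nuclease activity that nicks the DNA strand, Mlh3 is the MutL protein of meiotic crossing over, and Pms1 has a less defined role. GV oocytes contain DNA that has completed premeiotic replication and recombination, and they store mRNA for later maturation.

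The libraries held between 33349466 and 37232818 estimated counts. All 13 oocyte markers examined reached 1 TPM, a level corrected for transcript length and library depth, with summed levels of 55118 and 55459 TPM in the control libraries and 54657 and 47810 TPM in the irradiated libraries. Of 12 granulosa and cumulus cell markers, 8 were listed and 4 reached 1 TPM, and the listed ones summed to between 16.5 and 19.0 TPM in control and between 16.5 and 22.1 TPM in irradiated libraries. Of 6 theca, stroma and leukocyte markers, 3 were listed and 0 reached 1 TPM. Irradiated library 2 stood apart from the other libraries. Its scaling factor (trimmed mean of M-values, TMM) was 1.19, against 0.923 to 0.975 in the other 3, and 2621 of 12569 tested genes lay more than 1.5-fold from the control mean in it, against 722 genes in irradiated library 1 and 875 genes between the 2 control libraries. Its part in the results was not tested. Values without it are given beside the results that it moves most.

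All 5 genes were detected in every library, and their levels spanned a wide range. Pms1 had the highest level, with 22.82 and 25.04 TPM in the control libraries and 22.03 and 18.04 TPM in the irradiated libraries. Msh3 was next, with 15.54 and 17.49 TPM in control and 14.5 and 22.1 TPM in irradiated libraries. The ranges of these 2 genes overlapped, and Pms1 was the higher of the pair in 3 of 4 libraries, irradiated library 2 being the exception. Msh6 had 8.14 and 8.74 TPM in control and 8.62 and 7.91 TPM in irradiated libraries. This was the narrowest spread of the 5 genes on the TPM scale relative to the level. Pms2 had 2.9 and 3.65 TPM in control and 3.4 and 4.81 TPM in irradiated libraries. Mlh3 was the lowest, with 0.91 and 1.03 TPM in control and 0.79 and 0.87 TPM in irradiated libraries. From Msh3 down to Mlh3, the ranges of neighbours in this order did not overlap.

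Over the 4 libraries the mean levels were 22.0 ± 2.92 TPM for Pms1, 17.4 ± 3.36 TPM for Msh3, 8.35 ± 0.393 TPM for Msh6, 3.69 ± 0.809 TPM for Pms2 and 0.900 ± 0.10 TPM for Mlh3 (SD, n = 4 libraries). Their ranks by mean level among the 17374 genes were 2959, 3390, 4749, 6546 and 9645. The median over all listed genes was 1.41 TPM, so Mlh3 was the single member below it. Within the MutS pair, Msh3 exceeded Msh6 by 1.91-fold and 2.00-fold in the control libraries and by 1.68-fold and 2.79-fold in the irradiated libraries on the TPM scale. Within the MutL genes, Pms1 exceeded Pms2 by 7.87-fold and 6.86-fold in control and by 6.48-fold and 3.75-fold in irradiated libraries. Pms2 exceeded Mlh3 by 3.19-fold and 3.54-fold in control and by 4.30-fold and 5.53-fold in irradiated libraries. For each ratio, irradiated library 2 held the most extreme value.

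**Figure D1:**
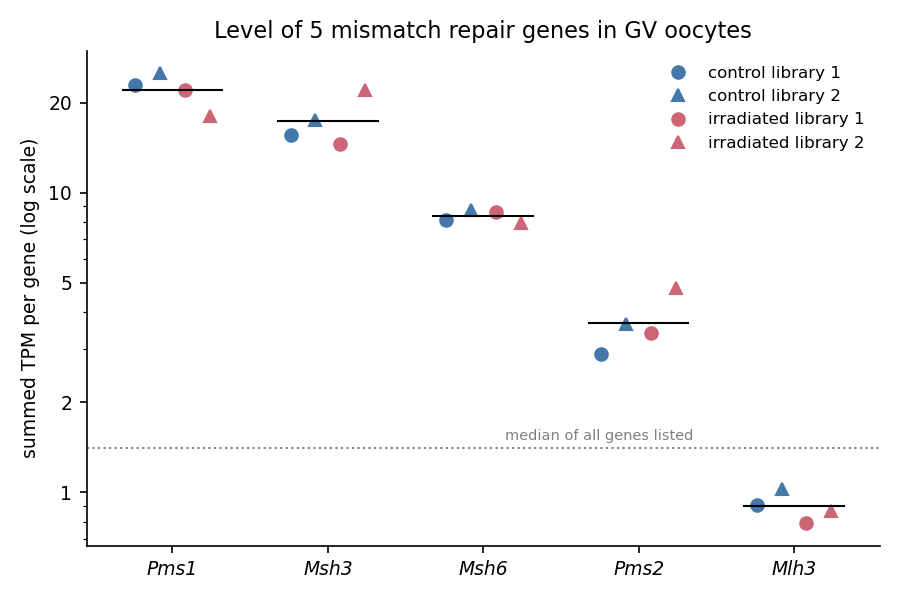
Summed TPM per gene (log scale) in the 4 libraries, with circles for library 1 and triangles for library 2 of each condition, a bar at the mean of the 4 libraries and a dotted line at the median of all listed genes, 1.41 TPM. Pms1 and Msh3 overlap at the top, and Msh6, Pms2 and Mlh3 follow without overlap.

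The comparison of irradiated with control oocytes asks whether the transcript pool of an oocyte changes after genotoxic stress. It was made on gene totals scaled with the TMM factors, here called normalized counts. A call required a Benjamini-Hochberg adjusted p under 0.05 in edgeR and a size of the log2 fold change over 2. None of the 5 genes met both limits, which 0.00796% of the 12569 tested genes did. At an unadjusted p under 0.05 in this fit the count of members was also 0, against 5.92% of all genes (4.63% higher and 1.29% lower in irradiated oocytes). In edgeR fits of all 4 libraries, Pms1 had an unadjusted p of 0.0420 without a filter and 0.0237 with the replicate number as a block. An unadjusted p under 0.05 was reached by 1197 and 1299 of all genes in these 2 fits. The alternative tools and settings called 0 members past both limits. In 2 of the 5 genes, Mlh3 and Pms1, both irradiated libraries lay below both control libraries, which 19.9% of all tested genes did. The same 2 genes were lower without overlap on the TPM scale, as were 5.88% of all genes, while 32.7% were higher. The other 3 overlapped between conditions. The estimate was below 0 for 4 genes and above 0 for 1, with a median log2 fold change of -0.23, against 0.0102 over all genes. On log2(TPM + 1) it was below 0 for 3 genes and above 0 for 2, with a median of -0.0273, against 0.14 over all genes. Because each library is a pool of oocytes, fewer cells expressing a gene and less RNA per cell cannot be told apart.

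Pms1, the most abundant member, gave normalized counts of 1857 and 1911 without and 1709 and 1059 with irradiation. Irradiated library 2 was far below the other 3, which lay close together. The mean was 1884 ± 37.9 in control and 1384 ± 460 in irradiated oocytes (SD, n = 2 libraries each). The log2 fold change was -0.45 (standard error 0.224, 95% interval -0.98 to 0.0853, adjusted p = 0.708, edgeR). Without irradiated library 2 it was -0.14.

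Mlh3, which acts in meiotic crossing over, had normalized counts of 136 and 145 in control and of 114 and 95.6 in irradiated libraries, from 133, 134, 107 and 111 estimated counts. Both irradiated libraries lay below both controls, and it is the member with the fewest counts. The mean was 141 ± 6.30 in control and 105 ± 12.9 in irradiated oocytes (SD, n = 2 libraries each). The log2 fold change was -0.43 (standard error 0.199, 95% interval -0.90 to 0.0412, adjusted p = 0.708, edgeR). Without irradiated library 2 it was -0.30.

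Msh6, the mismatch-binding subunit for single mispaired bases, had normalized counts of 932 and 940 in control and of 941 and 653 in irradiated libraries. The values of 3 libraries were nearly equal and irradiated library 2 alone was lower. The mean was 936 ± 5.67 in control and 797 ± 204 in irradiated oocytes (SD, n = 2 libraries each), with a log2 fold change of -0.23 (standard error 0.188, 95% interval -0.68 to 0.21, adjusted p = 0.735, edgeR). Without irradiated library 2 the estimate turned to 0.00981.

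Msh3, the subunit for loops of extra bases, had normalized counts of 1567 and 1683 in control and of 1398 and 1590 in irradiated libraries. The conditions overlapped, and irradiated library 2 lay between the controls. The mean was 1625 ± 82.1 in control and 1494 ± 136 in irradiated oocytes (SD, n = 2 libraries each), with a log2 fold change of -0.12 (standard error 0.139, 95% interval -0.45 to 0.21, adjusted p = 0.791, edgeR). Scaled by library size alone, the estimate turned to 0.0495, while the median of all genes moved from 0.0102 to 0.17, and on log2(TPM + 1) it turned to 0.114.

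Pms2, the MutL nuclease subunit, had normalized counts of 271 and 321 in control and of 295 and 318 in irradiated libraries. Both irradiated values lay within the span of the controls. The mean was 296 ± 35.5 in control and 306 ± 16.4 in irradiated oocytes (SD, n = 2 libraries each), with a log2 fold change of 0.0514 (standard error 0.163, 95% interval -0.33 to 0.44, adjusted p = 0.919, edgeR). Without irradiated library 2 the estimate was -0.00291 and without control library 1 it was -0.0669. The 95% intervals of all 5 members lay within a log2 fold change of 1 in either direction, so the fold limit of 2 was outside each of them.

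**Figure D2:**
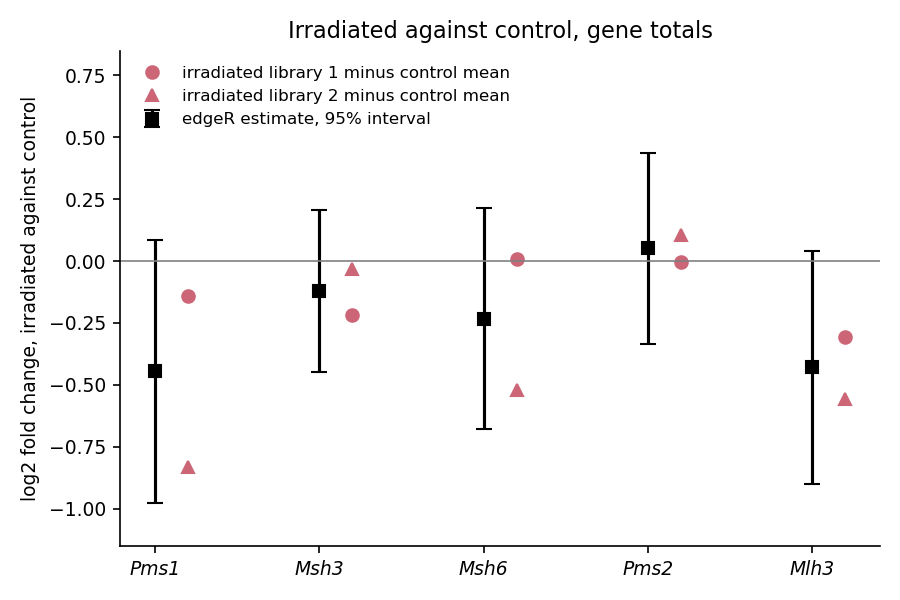
Log2 fold change of each gene total, irradiated against control, as the edgeR estimate with its 95% interval (square and bar) and, beside it, the difference of each irradiated library from the mean of the control libraries (circle, library 1; triangle, library 2). Every interval includes 0, and in Pms1 and Msh6 the values of the 2 irradiated libraries lie far apart.

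The 2 irradiated libraries differed from each other in some members and not in others. Relative to the control mean, Pms1 was at a log2 difference of -0.14 in irradiated library 1 and -0.83 in irradiated library 2. Msh6 was at 0.00847 and -0.52, and Mlh3 at -0.31 and -0.56. Msh3 was at -0.22 and -0.0311, and Pms2 at -0.00543 and 0.10. The 2 control libraries differed by between 0.0124 for Msh6 and 0.25 for Pms2 on the same scale. With irradiated library 1 left out, the log2 fold change was -0.83 for Pms1, -0.52 for Msh6 and -0.56 for Mlh3. The adjusted p of these 3 values (edgeR) was 2.63e-14, 2.19e-05 and 0.0310, in a fit where the spread of the lone irradiated library is assumed to be that of the controls. In that fit 35.3% of all genes had an adjusted p below 0.05, against 0.812% with irradiated library 2 left out instead. Over all other settings that kept the 4 libraries, the adjusted p was between 0.414 and 0.999 for Pms1, between 0.618 and 0.999 for Msh6 and between 0.516 and 0.999 for Mlh3.

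**Figure D3:**
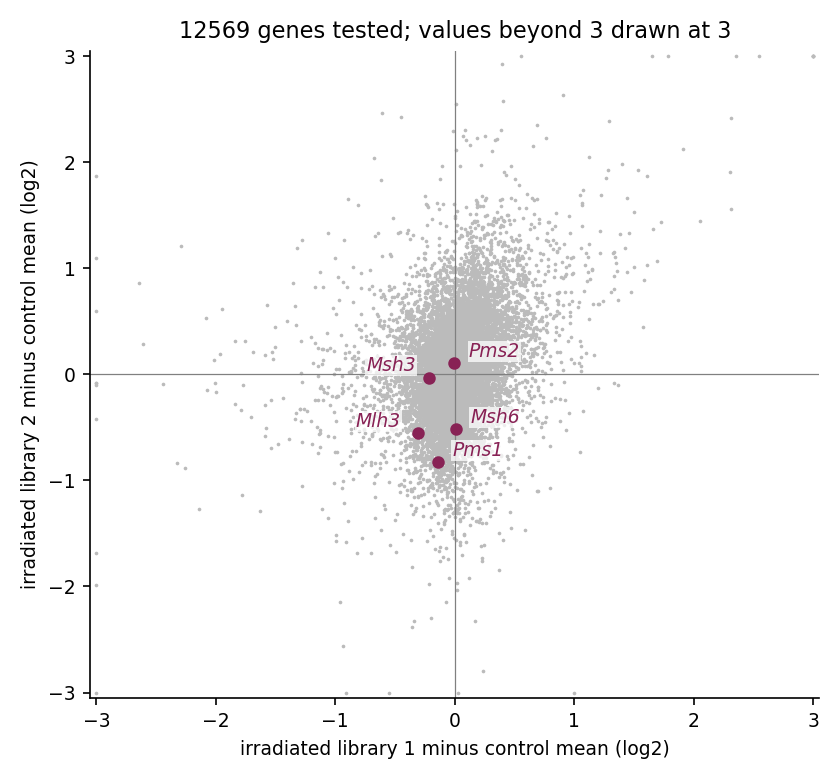
Log2 difference of irradiated library 1 (x axis) and irradiated library 2 (y axis) from the mean of the control libraries for 12569 genes (grey) and the 5 mismatch repair genes (labelled), in normalized counts. The cloud is taller than wide, with 2621 genes beyond 1.5-fold in irradiated library 2 and 722 in irradiated library 1, and Pms1, Mlh3 and Msh6 sit below 0 on the y axis.

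The genes whose values followed the members most closely over the 4 libraries were taken by the root mean square difference of centred log2 normalized counts. The nearest gene was Far1 for Msh3 (0.00476), Rbm18 for Msh6 (0.00766), Tex26 for Mlh3 (0.0161) and Rpl17 for Pms1 (0.0148). With 4 libraries such likeness is common: between 364 and 1401 genes lay within 0.1 of each of these 4 members.

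The members differ in how many transcripts the table lists for them. Msh6 has 1 transcript, Mlh3 has 3, Msh3 has 7, and Pms1 and Pms2 have 8 each. Known transcripts carry the prefix NM_ and predicted ones XM_. The counting program had divided the reads of a gene among them, so their counts carry the error of that step. The summed count of a gene does not depend on this division among its transcripts. The summed TPM can depend on it, because each transcript is corrected for its own length. After the low-count filter 20 of the 27 were tested, and 0 passed both limits, as for 0% of the 26645 transcripts in the same fit. At an unadjusted p under 0.05 there were 5 of the 20, against 4.9% of all transcripts, and 3 of these 5 passed the filter only through the condition in which they had reads.

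For Msh3 the estimates of the 2 known transcripts had opposite signs. In the GENCODE annotation of GRCm38 the transcripts paired with them have 24 exons each and a coding length, without the stop codon, of 3285 bases for NM_010829.2 and 3282 bases for NM_001311120.1. Apart from their outer ends they differ at the first edge of exon 20, where NM_010829.2 holds 3 additional coding bases at chr13:92235729-92235731 on the minus strand. The coding sequence around this junction, with 24 bases on each side, is shown because only reads over it tell these 2 transcripts apart within the coding sequence, and capitals mark the 3 additional bases.
NM_010829.2: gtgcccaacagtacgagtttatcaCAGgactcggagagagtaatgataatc
NM_001311120.1: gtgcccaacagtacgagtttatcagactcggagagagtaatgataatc
The gene lies at chr13:92211878-92355004 on the minus strand.

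The transcript with the 3 additional bases, NM_010829.2, had estimated counts of 435 and 741 in control and of 245 and 116 in irradiated libraries, which is 28.4% and 47.7% of the gene in control and 18.6% and 6.27% in irradiated libraries. The transcript without them, NM_001311120.1, had counts of 338 and 322 in control and of 430 and 626 in irradiated libraries, or 22.1%, 20.7%, 32.7% and 33.9% of the gene. In both, the conditions did not overlap. Of the 20 tested member transcripts, 5 were higher and 5 lower without overlap in normalized counts, against 18.7% and 17.9% of all transcripts. Some of them passed the low-count filter only through 1 condition, the one in which they are high. They are XM_006517542.2 of Msh3, XM_006515704.4 of Mlh3 and XM_030253686.1 of Pms1 among the higher, and XM_006495939.4 of Pms1 among the lower. The comparison with all transcripts is therefore a description. The log2 fold change was -1.78 (95% interval -3.51 to -0.0562, adjusted p = 0.989) for NM_010829.2 and 0.54 (95% interval 0.0671 to 1.01, adjusted p = 0.870) for NM_001311120.1 in edgeR over all transcripts. The predicted transcript XM_006517543.2 held counts of 715 and 462 in control and of 505 and 993 in irradiated libraries, with overlap. Another predicted transcript, XM_006517542.2, was at 0 in both controls and at 95 and 68 counts after irradiation, a mean normalized count of 26.7 times a floor of 3 counts. It passed the low-count filter only through the irradiated libraries, where it is high, so its p-values are a description. Its adjusted p was 0.777 in the quasi-likelihood fit, 0.00143 in DESeq2 and 0.000995 in the exact test, and it ran from 0.245 to 0.964 in the other alternatives. It was the single member transcript called past both limits by DESeq2 and by the exact test, which called 233 and 299 of all transcripts.

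Isoform usage, the share that a transcript takes of its gene, was compared with diffSpliceDGE of edgeR over 6323 genes with several tested transcripts. It called 0.253% of these genes and 0 of the 4 members among them. At an unadjusted p under 0.05 there were 2 of the 4, Msh3 and Mlh3, against 6.12% of all. The transcripts tested for them include XM_006517542.2 and XM_006515704.4, which passed the low-count filter only through the irradiated libraries. The p-values of isoform usage for these 2 genes are therefore a description. The adjusted p was 0.337 for Msh3 and 0.478 for Mlh3 (edgeR). The known transcript of Mlh3, NM_175337.2, had counts of 105 and 96 in control and of 70 and 18 in irradiated libraries. It made up 78.9% and 71.6% of the gene in control and 65.5% and 16.5% in irradiated libraries, so that irradiated library 2 was far below the other 3. The predicted XM_006515703.4 had counts of 28 and 38 in control and of 25 and 76 in irradiated libraries. The predicted XM_006515704.4 was at 0 in both controls and at 12 and 17 counts after irradiation, a mean normalized count of 4.59 times a floor of 3 counts. It passed the low-count filter only through the irradiated libraries, so its fit (log2 fold change 6.80, 95% interval 1.80 to 11.8, adjusted p = 0.779, edgeR) is a description.

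Pms1 and Pms2 kept 1 leading transcript throughout. NM_153556.2 made up 81.7% and 80.9% of Pms1 in control and 83.6% and 81.2% in irradiated libraries. Its share was thus steady in irradiated library 2, where the total of Pms1 was lowest. A minor predicted transcript of Pms1, XM_006495939.4, was at 28 and 19 counts in control and at 0 in both irradiated libraries. Its mean normalized count in control was 8.16 times a floor of 3 counts, and it passed the low-count filter only through the controls. NM_008886.2 made up 77.4% and 64.5% of Pms2 in control and 83.2% and 80.4% in irradiated libraries. The other 7 transcripts of Pms2 had at most 58 counts in any library and each had 0 counts in at least 1 library. The adjusted p of isoform usage was 1.00 for both genes (edgeR).

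**Figure D4:**
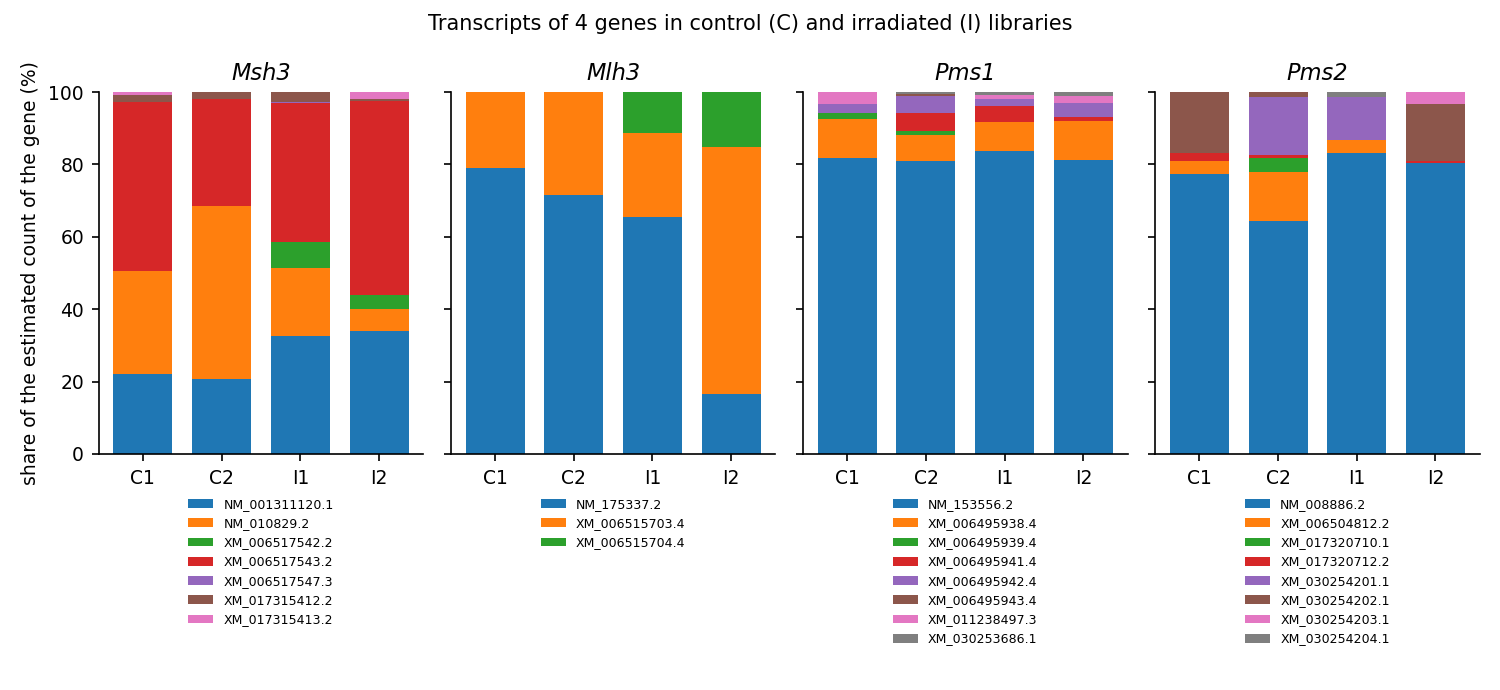
Share of the estimated count of a gene (percent) taken by each listed transcript in control libraries C1 and C2 and irradiated libraries I1 and I2, for the 4 genes with several transcripts. The leading transcript of Pms1 stays between 80.9% and 83.6%, while NM_175337.2 of Mlh3 is at 16.5% in I2 and NM_010829.2 of Msh3 is lower in both irradiated libraries.

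In the RefSeq annotation of GRCm38.p6, Pms1, Pms2 and Msh6 each adjoin or overlap another listed gene on the opposite strand. Pms1 (chr1:53189187-53297031, minus strand) starts head to head with Ormdl1, a regulator of sphingolipid synthesis, with 63 bases between the 2 genes. Pms2 (chr5:143909901-143972745, plus strand) starts head to head with Aimp2, a component of the aminoacyl-tRNA synthetase complex, with 61 bases between them. The 2 gaps, with 30 bases of each gene, are printed on the strand of the member because the members and their neighbours share these few bases as upstream sequence. Capitals mark the bases between the 2 gene starts.
Pms1 and Ormdl1, chr1:53297002-53297124, minus strand: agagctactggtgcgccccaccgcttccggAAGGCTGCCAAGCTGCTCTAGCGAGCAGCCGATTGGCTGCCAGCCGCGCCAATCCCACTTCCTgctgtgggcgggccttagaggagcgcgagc
Pms2 and Aimp2, chr5:143909810-143909930, plus strand: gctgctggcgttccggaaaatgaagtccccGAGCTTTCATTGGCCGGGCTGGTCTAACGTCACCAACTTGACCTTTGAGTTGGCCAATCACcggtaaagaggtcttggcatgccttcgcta
Each gap contains 2 matches to CCAAT, counted on both strands. Any match to this motif was found in 37.9% of 27025 promoter windows of 300 bases in the RefSeq set, which are longer than the gaps.

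The window of Msh6 held 5 matches to GGGCGG, a motif with any match in 35.9% of the windows, and 1 to CCAAT. The windows of Mlh3 held 1 match to CCAAT and 0 to GGGCGG. The windows of Msh6, Mlh3, Pms1 and Pms2 held between 19 and 37 CpG dinucleotides, against a median of 7 over all windows. Of all windows, 5.37% held at least as many as Msh6 and 18.4% at least as many as Pms1. The shares were 23.3% and 25.0% for the windows of Mlh3 and 28.4% for Pms2. A match is a description of the letters and was not tied to the expression values.

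Msh6 (chr17:87975050-87990892, plus strand) meets Fbxo11, an F-box gene for protein ubiquitination, tail to tail with 34 shared bases. Mlh3 (chr12:85234466-85270647, minus strand) has no listed gene that overlaps it or starts within 1 kb of it. Whether the counting used strand is not given in the sources used here, so reads from the shared bases of Msh6 and Fbxo11 may not be told apart.

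The neighbours were expressed at levels unlike those of the members in the head-to-head pairs with Ormdl1 and Aimp2. The mean level was 85.8 ± 7.21 TPM for Ormdl1, 116 ± 6.86 TPM for Aimp2 and 16.5 ± 1.90 TPM for Fbxo11 (SD, n = 4 libraries). Ormdl1 had normalized counts of 3945 and 3787 in control and of 3440 and 3196 after irradiation, a log2 fold change of -0.22 (95% interval -0.55 to 0.11). The 2 irradiated libraries were close together in this gene. Aimp2 had normalized counts of 3097 and 3015 in control and of 2831 and 2450 after irradiation, a log2 fold change of -0.21 (95% interval -0.55 to 0.13). Fbxo11 had 1711 and 1652 in control and 1476 and 1468 after irradiation, a log2 fold change of -0.19 (95% interval -0.49 to 0.11). In Ormdl1, Aimp2 and Fbxo11 both irradiated libraries lay below both controls, as in 19.9% of all genes. On log2(TPM + 1) the estimates turned to 0.0343 for Fbxo11 and 0.000295 for Ormdl1, each below the median of all genes on that scale. None of the 3 neighbours passed the limits, and their adjusted p was 0.714 (edgeR).

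**Figure D5:**
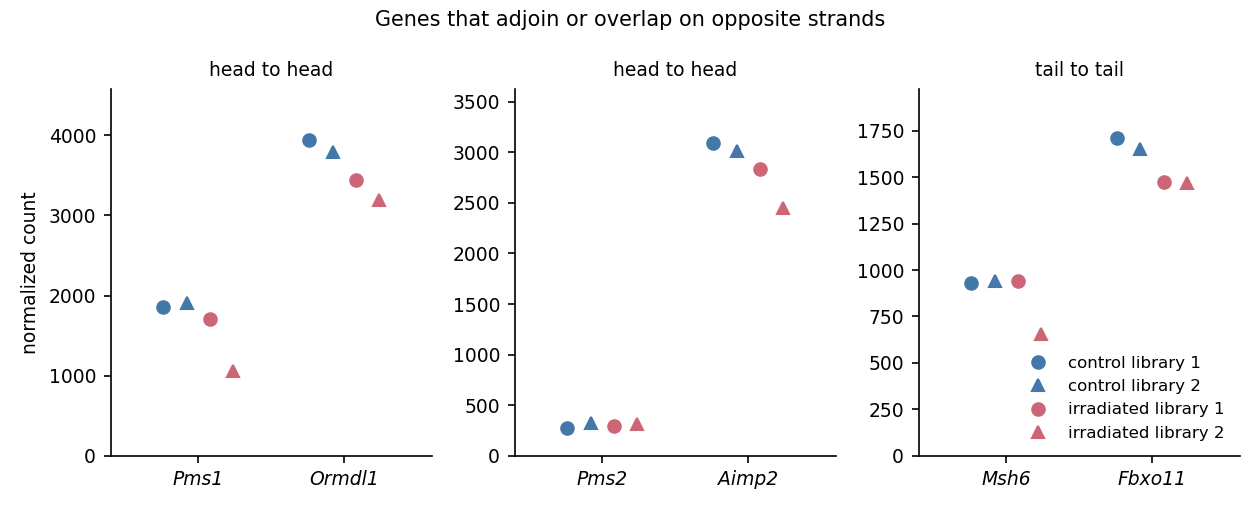
Normalized counts of 3 members and the gene that adjoins or overlaps each on the opposite strand, in the 4 libraries (colours and symbols as in the legend, axes starting at 0). Pms1 and Msh6 are lowest in irradiated library 2 by a wide margin, at 1059 and 653, while Ormdl1 and Fbxo11 show no such gap between the irradiated libraries.

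Other genes of the pathway were grouped by role. The list for the later steps of mismatch repair, in which the strand is excised and the gap filled and sealed, comprised 18 genes. It also held Setd2 and Ssbp1, which do not carry out these steps and had log2 fold changes of -0.29 and -0.31. All 18 genes were tested. None passed the limits or an unadjusted p under 0.05. The estimate was above 0 for 6 genes and below 0 for 12, with a median log2 fold change of -0.17 against 0.0102 over all genes. Both irradiated libraries lay above both controls in 3 of these genes and below both in 9, against 22.1% and 19.9% of all genes. These counts depended on the scaling. On log2(TPM + 1) the estimate was above 0 for 12 genes and below 0 for 6, with a median of 0.0506 against 0.14 over all genes, and in TPM 6 genes were higher and 3 lower without overlap, against 32.7% and 5.88% of all genes. Without irradiated library 2 the median of the list was -0.0573. The lowest estimate was that of Lig1, a DNA ligase, at -0.35 (95% interval -0.82 to 0.13), and the highest that of Pold4, a subunit of DNA polymerase delta, at 0.30 (95% interval -0.22 to 0.83). They were -0.12 and 0.0103 without irradiated library 2, and without irradiated library 1 they were -0.61 and 0.54. The same list ranged in level from 3.69 TPM for Lig1 to 180 TPM for Hmgb1, a DNA-binding protein, with a median of 38.4 TPM, and all 18 had a higher mean level than Mlh3.

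The list for meiotic crossing over comprised 10 genes, among them relatives and partners of the members. Of these 10 genes, 5 had an estimate above 0 and 5 below. The median log2 fold change was 0.00821, against 0.0102 over all genes. On log2(TPM + 1) the split was 9 and 1 with a median of 0.18, against 0.14 over all genes. Mus81, a nuclease of a separate crossover route, had normalized counts of 1396 and 1446 in control and of 1649 and 2006 in irradiated libraries. Both irradiated values lay above both controls. Its log2 fold change was 0.36 (95% interval 0.0119 to 0.72), with an adjusted p of 0.708 (edgeR), and it was the single gene of this list at an unadjusted p under 0.05, which 4.63% of all genes had with a higher value. It did not reach an unadjusted p under 0.05 in DESeq2 or in the exact test, and its log2 fold change was 0.22 without irradiated library 2. The estimates of the list ran from -0.18 (95% interval -0.56 to 0.20) for Ccnb1ip1, a crossover regulator, to 0.40 (95% interval -0.59 to 1.38) for Msh5, a MutS relative that acts in crossing over. Ccnb1ip1 turned to 0.0374 on log2(TPM + 1). Msh5, with 13.3 to 23.4 normalized counts per library, was at 0.0407 without irradiated library 1 and at 0.71 without irradiated library 2. Levels ran from 0.278 TPM for Msh5 to 31.1 TPM for Mus81, and 8 of the 10 genes reached 1 TPM in at least 1 library.

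Of 7 genes whose proteins bind MutS or MutL proteins or act beside them, 2 had an estimate above 0 and 5 below. The median log2 fold change was -0.10, and 0 had an unadjusted p under 0.05. On log2(TPM + 1) the split was 5 and 2 with a median of 0.11, against 0.14 over all genes. The estimates ran from -0.23 (95% interval -0.64 to 0.17) for Brip1, a helicase, to 0.40 (95% interval -0.20 to 1.01) for Mutyh, a DNA glycosylase that removes adenine paired with oxidised guanine. They were -0.0319 and 0.0444 when irradiated library 2 was left out. Without irradiated library 1 they were -0.46 and 0.69, and Mutyh was at 0.18 without control library 1 and 0.66 without control library 2. Levels ran from 1.69 TPM for Fan1, a nuclease, to 10.3 TPM for Mutyh.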

How the data were processed

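RNA-seq was analysed in 4 libraries of GV oocytes, grouped by the condition in the sample labels. Per the methods of the study, paired-end reads of 100 bases were trimmed and aligned to GRCm38 with Bowtie2, and the submitters' processing notes name HISAT2, Bowtie2, RSEM and mm10. The authors deposited an estimated count per RefSeq transcript and library, not scaled for depth, which is not a whole number in every row. The deposited TPM values are corrected for transcript length and depth. The deposited FPKM values (4 columns) and 6 columns of averages were not used. The annotation release and the length of each transcript are not given in the sources used here.

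Symbols were matched by gene ID to RefSeq (17323 of 17374). Counts were summed per gene, rounded, filtered (filterByExpr, minimum count 10) and scaled by TMM. The quasi-likelihood test of edgeR 4.0.16 (glmQLFit and glmQLFTest, R 4.3.3) was fitted without a block, and p-values were adjusted after Benjamini and Hochberg over the 12569 genes or 26645 transcripts. With 2 libraries against 2, an exact permutation test cannot go below 0.333. Isoform usage was tested with diffSpliceDGE and Simes' method. DESeq2 1.42.0 and limma 3.58.1 served as alternatives, beside other scalings, filters, a block and leaving out each library. Levels between genes were compared only in TPM. Figures were drawn with matplotlib 3.10.9. The members and the lists were chosen with earlier results of these data known. Named are the members and their transcripts, genes that overlap a member or start within 1 kb of its start, the nearest gene by pattern, and in each list the extremes of fold change and level and those at an unadjusted p under 0.05. The remaining subunits of the MutS and MutL complexes, the nearest gene of Pms2 and the surroundings of the start of Msh3 are not reported here. Each p-value weighs the difference between the conditions against the spread between these libraries. With 2 libraries per condition, that spread is estimated in part from the other genes.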

Additional observations from a re-analysis of the deposited data

How the results depend on the processing

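Across 13 alternatives for each of the 5 members, 59 of 65 fold changes kept their direction and stayed outside the limits. Msh3 turned to 0.114 on log2(TPM + 1), 0.118 on log2(TPM + 0.1) and 0.0495 with library size alone. These settings also moved the median of all genes from 0.0102 to 0.14, 0.21 and 0.17, so values on them are read relative to that shift. Msh6 turned to 0.00981 without irradiated library 2, and Pms2 to -0.0669 without control library 1 and -0.00291 without irradiated library 2. Leaving out single libraries gave log2 fold changes from -0.22 to -0.0309 for Msh3, -0.52 to 0.00981 for Msh6, -0.56 to -0.30 for Mlh3, -0.83 to -0.14 for Pms1 and -0.0669 to 0.18 for Pms2.

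Among other genes, on log2(TPM + 1) and log2(TPM + 0.1), Fbxo11 turned to 0.0343 and 0.0355, Ormdl1 to 0.000295 and 0.000220, and Ccnb1ip1 to 0.0374 and 0.0415. Fan1 turned to 0.0192 without irradiated library 2. Leaving out single libraries moved XM_006517543.2 between -0.19 and 0.50 (-0.0452 without control library 2, -0.19 without irradiated library 2) and XM_006515703.4 between -0.39 (without irradiated library 2) and 0.93.

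The count of genes past both limits, 1 in edgeR's quasi-likelihood test, was 5 in DESeq2, 10 in the exact test, 3 without a filter, and 0 in limma-voom, with library size alone and on both TPM scales (629, 586, 372 and 409 at an unadjusted p under 0.05). It was 16 to 51 with each library left out. For transcripts, 0 in edgeR (1306 at an unadjusted p under 0.05), it was 233 in DESeq2 and 299 in the exact test, and 0 with each library left out. For isoform usage, 16 genes, it was 58 in the F test, 8 without a filter, 0 in limma's diffSplice and 2 to 30 with each library left out. The cause was not tested.

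Whether libraries of the same number come from a shared experiment is not given in the labels. Their deviations from the group means correlated at r = 0.0592 over 12569 genes. With 2 libraries per condition this value cannot decide the question. With the replicate number as a block, 7 genes passed both limits, 0 transcripts did and 3 genes were called for isoform usage, and no member was among them.

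In counts scaled by TMM and divided by the GENCODE transcript length (CPM per kilobase), the mean level was 11.2 for Msh3, 5.78 for Msh6, 0.638 for Mlh3, 15.2 for Pms1 and 1.56 for Pms2, in the same order as in TPM. The GENCODE transcript of Pms2 is 5482 bases long, and the length behind its TPM is not given. Mlh3 had 107 to 134 counts per library, and with 2 libraries per condition the printed intervals set the precision.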
